A study of Homo sapiens with 9 samples.

Results

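Translation initiation and elongation factor genes were examined in MEL624, a human melanoma cell line, by precision run-on sequencing (PRO-seq), which maps RNA polymerases engaged in transcription. The groups were PCIF1 KO clone 1 (KO1), PCIF1 KO clone 2 (KO2), and control cells with the wild-type gene and a random sgRNA, with 3 biological replicates each. The deposited table gives 1 mean per group, so no value below has a standard deviation and no difference could be tested against replicate spread. Each knockout group is 1 clone, and the loss of PCIF1 and other differences of a clone from the control cells cannot be told apart. All autosomal protein-coding genes with symbols beginning EIF or EEF were taken, which gave 69 genes of 58336 listed. Of these, 60 reached a mean of 10 normalized counts over the 3 groups and were compared, and the other 9 are listed at low values or at 0.

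Initiation begins when the cap of an mRNA is bound by eIF4E, which with the scaffold eIF4G and the helicase eIF4A forms the eIF4F complex. The eIF2 complex brings the initiator tRNA to the small ribosomal subunit, which eIF3 organizes, and the elongation factors eEF1 and eEF2 then deliver aminoacyl-tRNA and move the ribosome along. PCIF1 methylates an adenosine that follows the cap, making m6Am, so it acts on the same end of the mRNA that eIF4E binds.

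PCIF1 itself was transcribed at 83.7 normalized counts per kb in clone 1, 74.3 in clone 2 and 74.4 in control, which does not check the labels, since a small coding edit need not alter nascent transcription. Of 8 markers of the melanocyte lineage, 2 reached the floor of 10 counts (MITF and PMEL). MITF had 142 normalized counts in clone 1, 259 in clone 2 and 169 in control, and PMEL had 21.3, 23.8 and 48.4. The summed count of the list, mostly MITF, was 171 in clone 1, 296 in clone 2 and 222 in control. TYR was listed at 0 in every group, and SOX10 at 0 in clone 1, 6.08 in clone 2 and 0 in control.

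The factor genes were transcribed at higher levels than most genes. Their summed normalized count was 38384 in clone 1, 38004 in clone 2 and 38718 in control, which was 1.02%, 0.994% and 1.03% of all counts. Per kb of exon length, 51 of the 60 genes lay above the median of autosomal protein-coding genes in control. The highest in clone 2 and in control was EIF1, which helps the scanning ribosome choose the start codon, at 777 normalized counts per kb in clone 1, 801 in clone 2 and 931 in control (percentile 99.5 in control). The highest in clone 1 was EEF1A1, the factor that brings aminoacyl-tRNA to the ribosome, at 840, 793 and 884 in the same order of groups. EEF2, the translocase, was at 656, 665 and 605, and EIF4A2, an eIF4A helicase, at 557, 535 and 496. These 4 genes stood well above the rest of the set in every group. The 60 genes spanned 186-fold in control, down to 5 per kb for EIF5A2, a paralog of EIF5A.

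**Figure D1:**
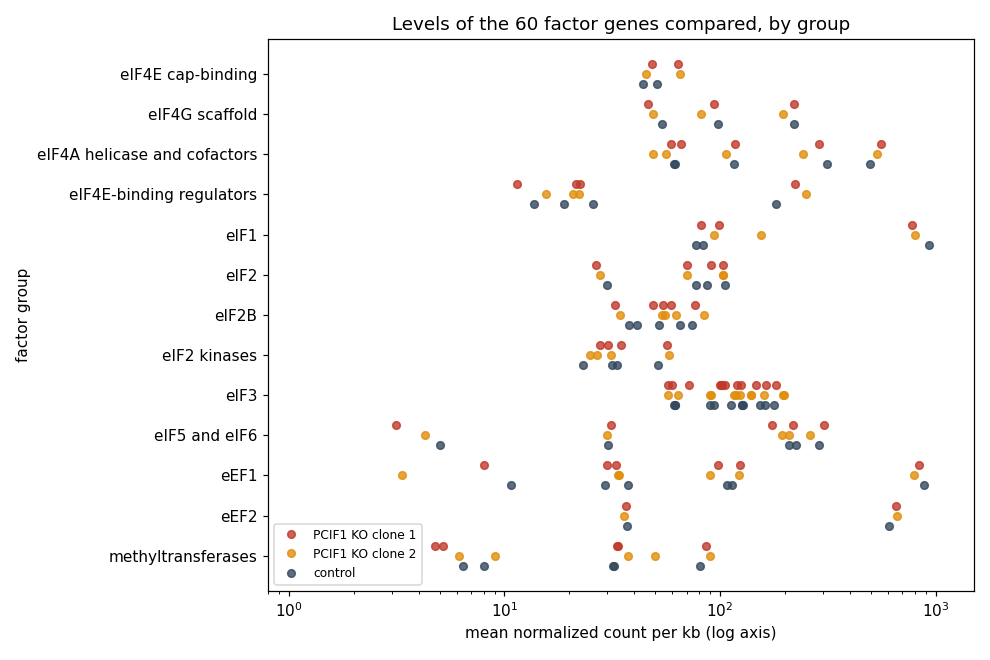
Deposited level (mean normalized count per kb, log axis) of the 60 compared genes by factor group, with 1 point per gene and group of samples (clone 1, clone 2 and control from top to bottom in each row). The eIF3 genes lie within a 2.90-fold range in control, while eIF1, eIF5 and eEF1 genes are spread widely.

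Where transcription starts bears on what PCIF1 can act on and on how these mRNAs are translated. Many mRNAs of the translation machinery begin with a C and a run of pyrimidines (the terminal oligopyrimidine or TOP tract), through which mTOR and LARP1 control their translation. RefSeq promoter windows (GRCh38.p14, 300 bases) were matched by symbol for 55 of the 69 genes. A C at the annotated start followed by at least 4 pyrimidines was found in 11 of the 55 (20.0%), against 4.64% of 14580 autosomal protein-coding promoters. The sequences below show this tract, in capitals, at the annotated starts of 6 genes, with 40 bases before the start and 15 from it.
EEF1A1 (chr6:73521018-73521072, minus strand): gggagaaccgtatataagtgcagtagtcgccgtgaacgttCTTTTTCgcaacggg
EEF2 (chr19:3985449-3985503, minus strand): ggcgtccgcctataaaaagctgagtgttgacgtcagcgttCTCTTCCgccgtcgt
EIF4A2 (chr3:186783537-186783591, plus strand): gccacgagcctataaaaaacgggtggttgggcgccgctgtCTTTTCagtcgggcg
EIF4B (chr12:53006416-53006470, plus strand): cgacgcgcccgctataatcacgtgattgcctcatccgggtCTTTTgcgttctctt
EIF3D (chr22:36529152-36529206, minus strand): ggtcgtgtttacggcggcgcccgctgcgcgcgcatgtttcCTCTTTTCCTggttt
EIF3M (chr11:32583791-32583845, plus strand): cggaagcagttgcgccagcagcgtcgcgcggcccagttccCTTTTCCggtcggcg

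Other genes of the set, among them most of the eIF4 group, have no such tract at the annotated start. The next sequences show the same window for 6 of them, with the annotated first base in capitals, or, for EIF4E2, a tract that begins 1 base after an annotated A.
EIF4E (chr4:98929119-98929173, minus strand): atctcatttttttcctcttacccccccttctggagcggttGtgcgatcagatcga
EIF4E2 (chr2:232550649-232550703, plus strand): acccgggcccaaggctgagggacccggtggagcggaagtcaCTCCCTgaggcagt
EIF4G1 (chr3:184314566-184314620, plus strand): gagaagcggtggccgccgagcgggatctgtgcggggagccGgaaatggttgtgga
EIF4A1 (chr17:7572785-7572839, plus strand): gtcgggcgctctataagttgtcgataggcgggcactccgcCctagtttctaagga
EIF4H (chr7:74174316-74174370, plus strand): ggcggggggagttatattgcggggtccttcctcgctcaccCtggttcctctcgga
EIF1B (chr3:40309667-40309721, plus strand): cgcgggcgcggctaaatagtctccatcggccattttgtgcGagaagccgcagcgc

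Among the 47 compared genes with a RefSeq window, the annotated first base was A in 16 (34.0%), C in 14 (29.8%) and G in 17 (36.2%). Among all compared autosomal protein-coding genes with a window, A was first in 46.5%, C in 11.9%, G in 40.7% and T in 0.951%. The annotated start is not a measured one: it equals the GENCODE start of the gene for 19 of the 55 genes and lies within 50 bases of it for 31. Factor genes that begin with A, the base that PCIF1 can methylate, had median log2 ratios to control of 0.06 in clone 1 and -0.05 in clone 2, and all genes that begin with A had -0.00 and 0.01. Those that begin with C had -0.06 and -0.02, against -0.02 and 0.01 for all genes with C. Those that begin with G had -0.07 and -0.06, against -0.02 and -0.02. In clone 1, single factor genes ran from -0.31 to 0.53 with A, -0.28 to 0.17 with C and -0.64 to 0.24 with G. In clone 2 they ran from -0.32 to 0.57, -0.36 to 0.46 and -0.27 to 0.88.

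**Figure D2:**
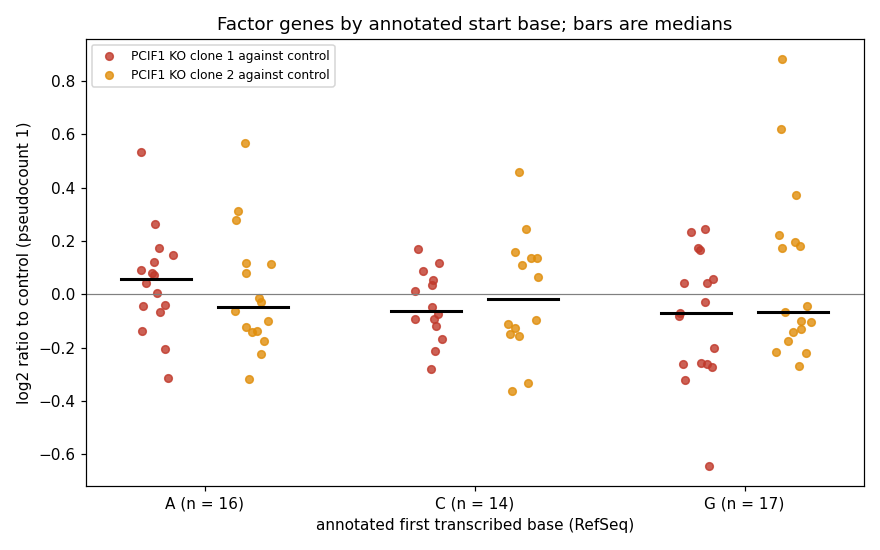
Log2 ratio to control of the 47 compared factor genes with a RefSeq window, by annotated first base (16 with A, 14 with C, 17 with G), for clone 1 and clone 2, with 1 point per gene and bars at the medians. The classes overlap, the highest ratio in clone 1 being in class A (0.53) and the lowest in class G (-0.64), and every median lies between -0.07 and 0.06.

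The 10 compared genes with the tract at the start were transcribed at a median of 133 normalized counts per kb in clone 1, 149.7 in clone 2 and 139.9 in control. The 37 without it had medians of 59.0, 55.4 and 53.9 per kb. Over all genes, those with the tract had medians of 35.1, 36.2 and 34.5 per kb in the same order, and those without it 29.8, 30.1 and 30.02. The median log2 ratios of the 10 genes with the tract were -0.02 in clone 1 and 0.09 in clone 2, and those of the 37 without it -0.03 and -0.06.

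Over the 60 compared genes, most differed little between the clones and control. The ratio used throughout is log2 of the mean normalized counts of 2 groups after adding a pseudocount of 1. Its median was -0.01 in clone 1 and -0.03 in clone 2, against -0.00 and -0.00 over all 17149 compared genes. A gene is called higher or lower here when its log2 ratio was at least 0.322 in size, a description of 2 means and no test. In clone 1, 1 gene was higher and 3 were lower by this measure, where 16.5% of all compared genes were higher and 13.9% lower. In clone 2, 8 were higher and 4 lower, where 21.9% of all compared genes were higher and 18.7% lower. At 1.5-fold, 0 were higher and 2 lower in clone 1 (6.93% and 4.94% of all genes), and 2 were higher and 1 lower in clone 2 (9.76% and 7.23%). At 2-fold, 0 were higher and 0 lower in clone 1 (2.27% and 1.32% of all genes), and 0 were higher and 1 lower in clone 2 (3.34% and 1.9%). The shares of factor genes were below those of all genes at each fold. At 2-fold lower in clone 2 the difference was small, 1.67% (1 gene) against 1.9%. Among compared autosomal protein-coding genes that share was 1.48%, below that of the factor genes. Both comparisons use the same control mean.

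The level of a gene bears on these shares, because ratios of low counts vary more. Among genes with a mean of 200 to 1000 counts, 1 of 35 factor genes was higher in clone 1 (10.7% of 4817 genes of that level) and 0 were lower (5.92%). In clone 2, 6 of the 35 were higher (17.1%), a share near the 17.9% of all genes of that level. None was lower, where 10.8% of all genes of that level were. Of the 5 compared factor genes with fewer than 50 counts, 0 were higher and 3 lower in clone 1 (24.6% and 23.7% of all genes of that level), and 1 was higher and 2 lower in clone 2 (27.1% and 30.1%). Between the clones, 7 factor genes were higher and 2 lower in clone 2 than in clone 1 (12.7% and 11.3% of all genes), and at 1.5-fold 2 were higher and 1 lower (4.37% and 3.8%). Cytosolic ribosomal protein genes, the products of which work with these factors, had a median ratio of -0.03 in clone 1 and of 0.00 in clone 2 over 79 compared genes. Of these, 2 were higher and 2 lower in clone 1 (16.5% and 13.9% of all compared genes). In clone 2, 9 were higher (11.4%) and 1 lower (1.27%), against 21.9% and 18.7% of all compared genes.

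**Figure D3:**
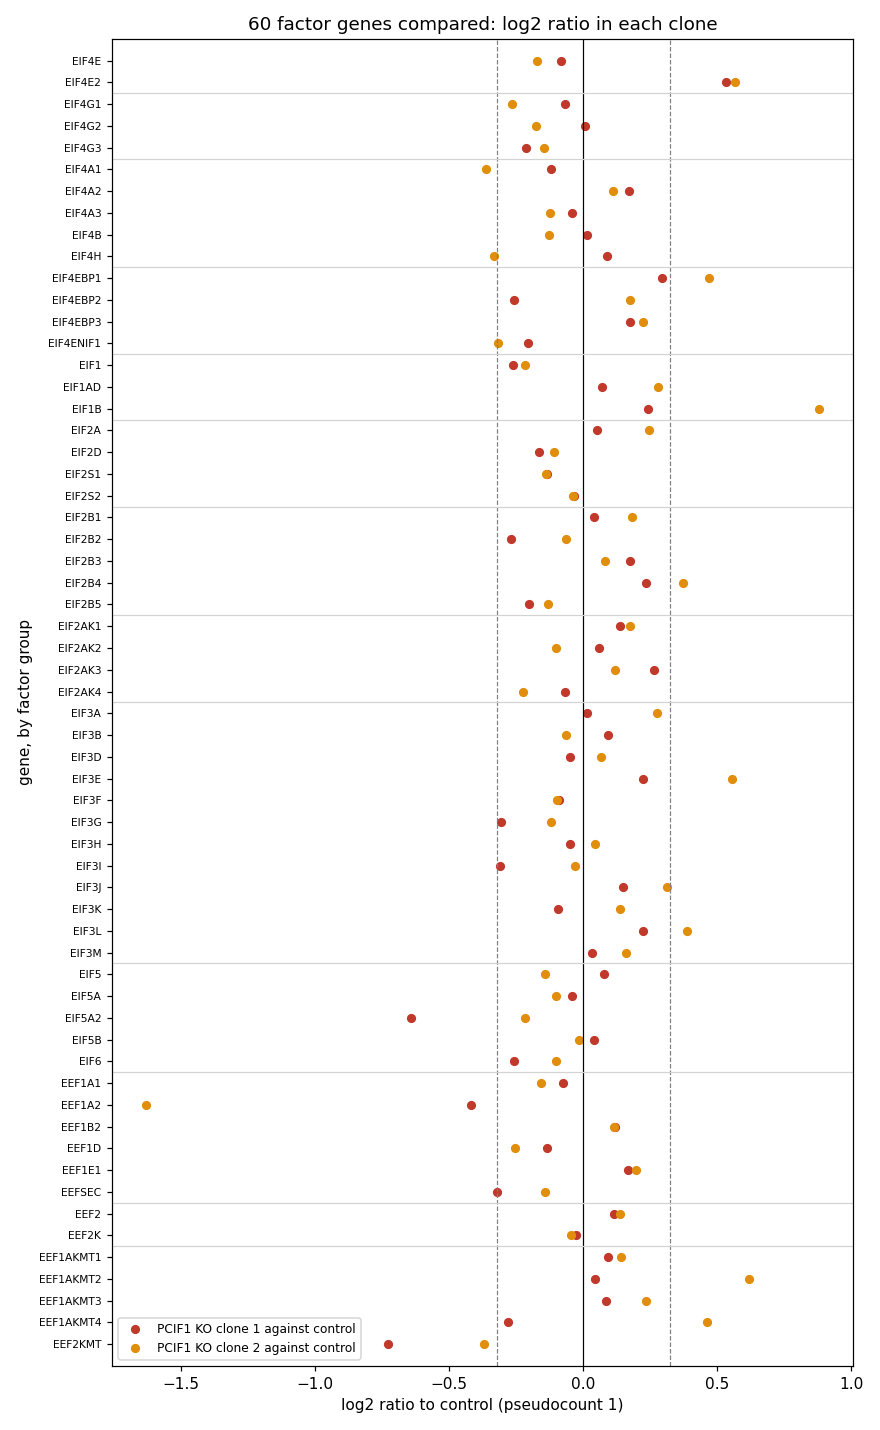
Log2 ratio to control (pseudocount 1) of each of the 60 compared factor genes in clone 1 and clone 2, in factor groups set apart by grey lines, with dashed lines at 0.322 in either direction. EEF1A2 lies lowest in clone 2 at -1.63 and EIF1B highest in clone 2 at 0.88.

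Of the 16 cap-binding and eIF4 genes, 14 were compared. In clone 1, 1 was higher (EIF4E2) and 0 were lower, where 16.5% and 13.9% of all compared genes were. In clone 2, 2 were higher (EIF4E2 and EIF4EBP1) and 2 lower (EIF4A1 and EIF4H), where 21.9% and 18.7% of all compared genes were. Their medians were -0.02 in clone 1 and -0.14 in clone 2. EIF4E (ENSG00000151247; GRCh38, chromosome 4, 98879276 to 98929133, minus strand), the cap-binding protein itself, was at 48.3 normalized counts per kb in clone 1, 45.3 in clone 2 and 51.1 in control, log2 ratios of -0.08 and -0.17. The authors' length for this gene is 14067 bases, against 4971 bases of merged exons in GENCODE release 44. Other genes differ in length as well, among them EIF3E (6005 against 37761 bases), EIF3I (1725 against 9526) and EIF2AK3 (5434 against 20691). The counted feature is not stated, so the bearing of these differences on levels per kb is unknown.

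EIF4E2 (ENSG00000135930; chromosome 2, 232550659 to 232583644, plus strand) encodes a second cap-binding protein, which represses rather than promotes initiation. It was at 63.6 normalized counts per kb in clone 1, 65.2 in clone 2 and 43.9 in control, log2 ratios of 0.53 and 0.57, so both clones were above control and close to each other. Its neighbours were also higher: the median log2 ratio of the 50 nearest compared genes was 0.41 in clone 1 and 0.45 in clone 2. After these medians were subtracted, 0.12 remained in each clone. EIF4E2 shares 10.4% of its exon bases with ENSG00000237126 on the other strand, which had 1.38, 1.75 and 0.745 normalized counts. Among those neighbours is GIGYF2 (chromosome 2, 232697299 to 232860605), which encodes the protein that works with EIF4E2 in translational repression, at 46.0, 42.1 and 30.4 per kb (log2 ratios of 0.60 and 0.47). EIF4E3, a cap-binding relative, had 0.51, 0.63 and 0.45 per kb and EIF4E1B, an oocyte form, 0.16 in clone 1 and 0 in both other groups, and neither was compared.

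The scaffold genes had log2 ratios under 0.322 in size in clones 1 and 2, where 69.7% and 59.4% of all compared genes did. EIF4G1, the main scaffold, was at 93.4 normalized counts per kb in clone 1, 81.3 in clone 2 and 97.9 in control (log2 ratios of -0.07 and -0.27). EIF4G2, which drives initiation without the cap-binding protein, was at 221, 195 and 220 per kb. EIF4G3 was at 46.5, 48.7 and 53.9. EIF4G1 and EIF4G2 were lowest in clone 2, and EIF4G3 was lower in both clones than in control.

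Among the helicase genes, EIF4A1 was at 288 normalized counts per kb in clone 1, 243 in clone 2 and 313 in control, log2 ratios of -0.12 and -0.36. EIF4A1 shares 42.1% of its exon bases with the same-strand gene ENSG00000264772, which had 447, 359 and 607 normalized counts, so reads of the 2 genes may be split between them. EIF4H, a cofactor of the helicase, was at 65.6, 48.9 and 61.7 per kb, and was lower in clone 2 (log2 ratio -0.33) but not in clone 1 (0.09), with -0.42 between the clones. EIF4A2 (0.17 and 0.11), EIF4B, another cofactor (0.01 and -0.13), and EIF4A3, the helicase of the exon junction complex (-0.04 and -0.12), had log2 ratios under 0.322 in size. EIF4A1 and EIF4A2 had ratios of opposite sign in both clones, all under 0.322 in size except that of EIF4A1 in clone 2.

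Regulators of the cap-binding protein were more varied. EIF4EBP1, which sequesters eIF4E until mTOR phosphorylates it, was at 223 normalized counts per kb in clone 1, 252 in clone 2 and 181 in control, log2 ratios of 0.29 and 0.47. Its neighbours had medians of 0.02 and -0.08. EIF4EBP2 was at 11.5, 15.6 and 13.8 per kb, log2 ratios of -0.26 and 0.17, and the median of its neighbours on chromosome 10 was 0.02 in clone 1 but 0.60 in clone 2. With that median subtracted, EIF4EBP2 was at -0.28 in clone 1 and -0.43 in clone 2, so its ratio in clone 2 changed sign. EIF4EBP3 was at 21.4, 22.2 and 18.8 per kb and shares 73.2% of its exon bases with the readthrough gene ANKHD1-EIF4EBP3. EIF4ENIF1, which carries eIF4E into the nucleus, was at 22.4, 20.7 and 25.8 per kb (log2 ratios of -0.21 and -0.32). The highest of these 4 regulators in every group was EIF4EBP1.

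**Figure D4:**
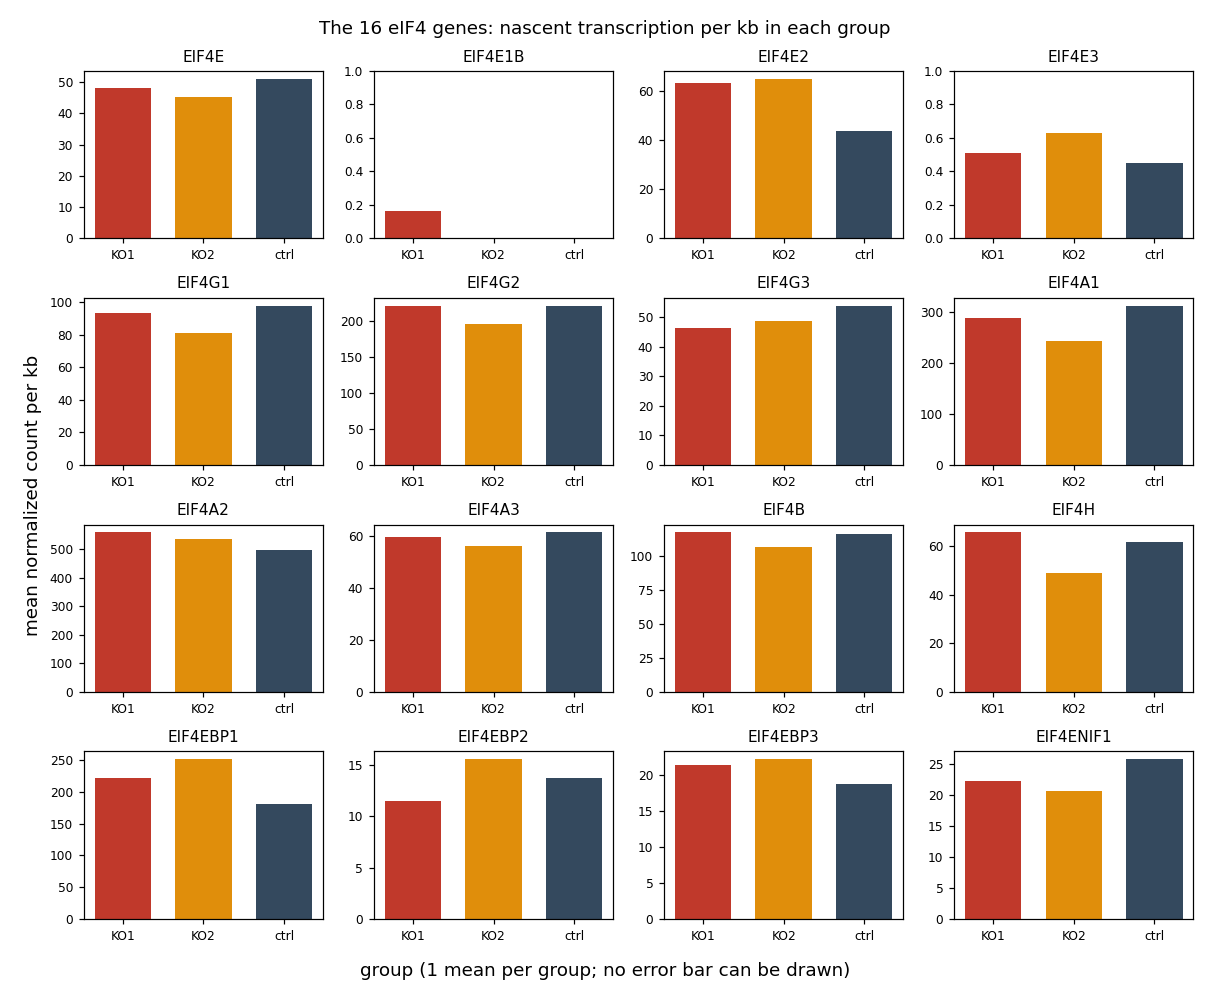
Deposited level (mean normalized count per kb) of the 16 eIF4 genes in clone 1 (KO1), clone 2 (KO2) and control (ctrl), each panel with its own axis from 0 and 1 mean per group, so there are no error bars. EIF4E2 and EIF4EBP1 are above control in both clones, and EIF4E is below control in both by less than 0.322 on the log2 scale.

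The sequence CACGTG, the E-box bound by MYC and its relatives, was searched on both strands of the 300-base windows. It was found in 16 of 55 factor genes (29.1%), against 8.77% of all windows, and in 6 of 15 eIF4 genes. The stretches below show it, in capitals, in 3 of these 6: the cap-binding EIF4E, the scaffold EIF4G1 and the helicase cofactor EIF4B.
EIF4E (chr4:98929343-98929368, minus strand): acccatcggcCACGTGaccagtcctt
EIF4E (chr4:98929190-98929215, minus strand): acatatccgtCACGTGgccagaagct
EIF4G1 (chr3:184314452-184314477, plus strand): ctgtggctgtCACGTGacggggcggg
EIF4G1 (chr3:184314529-184314554, plus strand): ctgcgccggtCACGTGggggcgccgg
EIF4B (chr12:53006424-53006449, plus strand): ccgctataatCACGTGattgcctcat

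Compared factor genes with this sequence had median log2 ratios of -0.04 in clone 1 and -0.10 in clone 2 (15 genes), and those without it 0.02 and -0.02 (32 genes). Over all compared genes the medians were -0.02 and -0.02 with it and -0.01 and -0.00 without it. Other letters searched on both strands, each independently of overlaps, were TATAA (18.2% of factor gene windows and 16.8% of all), CCGGAAG (27.3% and 14.5%), GGGCGG (74.5% and 59.7%), CCAAT (41.8% and 36.2%), TGACGTCA (1.82% and 2.70%) and the NRF1 motif (0% and 1.74%).

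In the eIF1 group, EIF1B had the highest ratio to control in clone 2. This paralog of EIF1 (chromosome 3, 40309707 to 40312424) was at 99.2 normalized counts per kb in clone 1, 155 in clone 2 and 83.7 in control, log2 ratios of 0.24 and 0.88. It is the highest ratio to control of the 60 genes. The median of its 50 neighbours was 0.07 in clone 1 but 0.42 in clone 2, and 0.46 remained in clone 2 after the subtraction. EIF1 itself had log2 ratios of -0.26 and -0.22, and EIF1AD, a nuclear protein that resembles eIF1A, of 0.07 and 0.28. The neighbours of EIF1AD had medians of -0.21 and -0.23. After their subtraction EIF1AD was at 0.28 in clone 1 and 0.51 in clone 2, above EIF1B (0.18 and 0.46).

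The genes of eIF2 and of its guanine exchange factor eIF2B were close to control. EIF2S1, the subunit phosphorylated under stress, was at 70.2 normalized counts per kb in clone 1, 70.1 in clone 2 and 77.2 in control. EIF2S2 was at 103, 103 and 106 per kb. EIF2A, which can deliver initiator tRNA separately from eIF2, was at 90.6, 104 and 87.4 (log2 ratios of 0.05 and 0.25), and EIF2D, with a related role, at 26.7, 27.8 and 29.99. None of these 4 was higher or lower by 0.322 in clones 1 and 2, where 69.7% and 59.4% of all compared genes were within that limit. Of the 5 eIF2B subunit genes, 1 was higher in clone 2, where 21.9% of all compared genes were. This gene, EIF2B4, was at 48.8, 53.7 and 41.4 per kb, log2 ratios of 0.23 and 0.37. The lowest by level was EIF2B5, the catalytic subunit, at 32.7, 34.4 and 37.7 per kb. The lowest single ratio in the group was that of EIF2B2 in clone 1 (-0.27). EIF2B1 was the highest of the group by level, at 76.6, 84.4 and 74.4 per kb.

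The kinases that phosphorylate eIF2 were all within 0.322 (log2) of control in clones 1 and 2, where 69.7% and 59.4% of all compared genes were. EIF2AK1, the heme-regulated kinase, was the highest of them at 56.6 normalized counts per kb in clone 1, 58.1 in clone 2 and 51.5 in control. EIF2AK3, the kinase of the endoplasmic reticulum (PERK), was at 27.7, 24.99 and 23.03 per kb, log2 ratios of 0.26 and 0.12. EIF2AK4, which senses uncharged tRNA (GCN2), was at 30.1, 27.0 and 31.5 per kb, log2 ratios of -0.07 and -0.22. EIF2AK2, the kinase activated by double-stranded RNA (PKR), had log2 ratios of 0.06 and -0.10.

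The eIF3 genes lay within a 2.90-fold range of level in control. Their 12 compared members lay between 57.7 and 183 normalized counts per kb in clone 1, 57.4 and 199 in clone 2, and 61.5 and 178 in control. No member was off by 0.322 (log2) in clone 1, where 16.5% of all compared genes were higher and 13.9% lower. In clone 2, 2 of the 12 were higher (16.7%), against 21.9% of all compared genes. The median log2 ratio of the 12 was -0.02 in clone 1 and 0.10 in clone 2. EIF3E was at 72.2, 90.9 and 61.8 per kb, log2 ratios of 0.22 and 0.56, and its neighbours had medians of 0.18 and 0.22. EIF3L was at 105, 118 and 90.2 per kb, log2 ratios of 0.22 and 0.39, and its neighbours had medians of -0.17 and -0.13. After their subtraction EIF3L was at 0.39 in clone 1 and 0.52 in clone 2. EIF3L shares 41.1% of its exon bases with ENSG00000279738 on the same strand, which was lower in both clones than in control (923, 865 and 1060 normalized counts). EIF3G had the lowest mean over both clones, with log2 ratios of -0.31 and -0.12. EIF3M was the highest by level, at 183, 199 and 178 per kb, and EIF3F the lowest, at 57.7, 57.4 and 61.5.

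EIF3A, which encodes the largest subunit protein, was at 164 normalized counts per kb in clone 1, 196 in clone 2 and 162 in control. Its log2 ratios, 0.02 and 0.28, were close to the medians of its neighbours on chromosome 10 (0.00 and 0.30). EIF3C and its near-identical copy EIF3CL on chromosome 16 were listed at 0.10 and 0 per kb in each clone and at 0.31 and 0 in control. Reads shared by the copies cannot be assigned, so these values are uncertain.

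Genes of the later steps differed little, except at low levels. EIF5, which triggers GTP hydrolysis by eIF2, was at 305 normalized counts per kb in clone 1, 262 in clone 2 and 289 in control (log2 ratios of 0.08 and -0.14). EIF5B, which joins the ribosomal subunits, was at 31.2, 30.02 and 30.3 per kb. EIF5A, the hypusine-bearing factor, had log2 ratios of -0.04 and -0.10, and EIF6, which keeps the large subunit apart, -0.26 and -0.10. EIF5A2 was at 3.14, 4.27 and 5.00 per kb, or 17.6, 23.9 and 28.0 normalized counts, log2 ratios of -0.64 and -0.22. It was lower in clone 1 at a level where ratios vary most. EIF5AL1, a retrocopy of EIF5A, was at 0.07 per kb in clone 1 and at 0 in clone 2 and control.

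The 2 eEF1A genes differed in level and in ratio. EEF1A2 (ENSG00000101210; chromosome 20, 63488013 to 63499239, minus strand), the form used by neurons and muscle, was at 8.00 normalized counts per kb in clone 1, 3.33 in clone 2 and 10.8 in control. These are 39.3, 16.4 and 52.8 normalized counts, log2 ratios of -0.42 and -1.63, with -1.22 between the clones. Both clones were lower than control and clone 2 was lowest, and EEF1A2 was the 1 factor gene at least 2-fold off. Its counts are low, and ratios vary more at that level. Among all compared genes with fewer than 50 counts, 4.68% were at least 2-fold lower in clone 2. The neighbours of EEF1A2 had medians of -0.10 and -0.11. EEF1A1, at a level far above, had log2 ratios of -0.07 and -0.16.

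The other compared eEF1 genes had log2 ratios under 0.322 in size in clones 1 and 2, where 69.7% and 59.4% of all compared genes did. EEF1B2, an exchange factor subunit, had log2 ratios of 0.12 and 0.12, EEF1D, another subunit, -0.14 and -0.25, and EEF1E1, a scaffold of the tRNA synthetase complex, 0.17 and 0.20. EEFSEC, which brings selenocysteine to the ribosome, was just inside the limit of 0.322 in clone 1, at 29.9, 33.9 and 37.4 normalized counts per kb (log2 ratios of -0.321 and -0.14). EEF1G was listed at 0 per kb in each clone and at 0.27 in control. EEF1G shares 99.7% of its exon bases with the same-strand gene ENSG00000255508, listed at 90.2 normalized counts in clone 1, 105 in clone 2 and 101 in control, so its own value is uncertain. EEF2 had log2 ratios of 0.12 and 0.14, and EEF2K, the kinase that inhibits it, was at 36.5, 36.0 and 37.2 per kb.

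Of the 5 genes of methyltransferases that modify elongation factors, EEF1AKMT2, EEF1AKMT4 and EEF2KMT were higher in clone 2 than in clone 1. Of all compared genes, 12.7% were. EEF1AKMT4 and EEF2KMT had few counts, at a level where ratios vary most. EEF1AKMT2, a lysine methyltransferase for eEF1A, was at 33.3 normalized counts per kb in clone 1, 49.7 in clone 2 and 32.3 in control, log2 ratios of 0.04 and 0.62. Genes around it on chromosome 10 had medians of -0.01 and 0.29, and 0.33 remained in clone 2 after the subtraction. EEF1AKMT2 shares 14.8% of its exon bases with the same-strand gene ENSG00000258539, listed at 13.6, 15.7 and 15.3 normalized counts. EEF1AKMT4 was at 5.17, 9.01 and 6.40 per kb, or 9.42, 16.4 and 11.7 normalized counts. Its log2 ratios were -0.28 and 0.46, with 0.74 between the clones, and it shares 49.2% of its exon bases with a readthrough gene. EEF2KMT, which methylates eEF2, was at 4.74, 6.17 and 8.07 per kb, or 14.8, 19.3 and 25.2 normalized counts, log2 ratios of -0.73 and -0.37. EEF2KMT shares 31.4% of its exon bases with ALG1 on the other strand, which had 202, 204 and 176 normalized counts. EEF1AKMT1, the highest of the 5 by level, was at 86.5, 89.4 and 81.0 per kb, and EEF1AKMT3 had log2 ratios of 0.09 and 0.23.

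The readthrough genes EEF1AKMT4-ECE2 and EEF1E1-BLOC1S5 were listed at 0 in every group. EIF2S3B, a retrocopy of the X-linked EIF2S3, was at 1.41 normalized counts per kb in clone 1, 2.36 in clone 2 and 1.54 in control. With EIF3C, EIF3CL, EIF4E1B, EIF4E3, EIF5AL1 and EEF1G, these are the 9 genes that were not compared.

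Chromosomal position was set beside each ratio, because neighbouring genes of some regions differ from control together. The median log2 ratio of the nearest compared genes (25 on each side, other factor genes left out) was at least 0.25 in size around 2 factor genes in clone 1 (EIF4E2 at 0.41 and EIF4A3 at -0.27). It was so around 5 in clone 2: EIF4EBP2 at 0.60, EIF4E2 at 0.45, EIF1B at 0.42, EIF3A at 0.30 and EEF1AKMT2 at 0.29. EIF4EBP2 and EIF3A were themselves below 0.322 in clone 2, whereas the other 3 of these were above it. The part of copy number in these ratios was not tested.

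**Figure D5:**
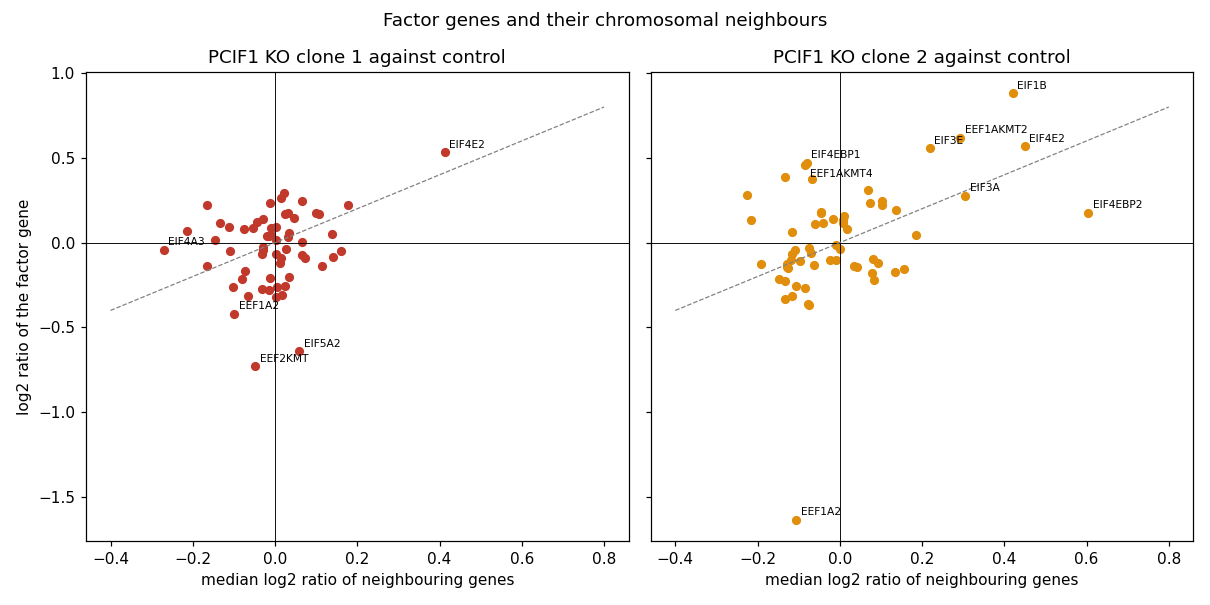
Log2 ratio of each of the 60 compared factor genes against the median log2 ratio of its neighbouring genes, in clone 1 (left) and clone 2 (right), with 1 point per gene, the dashed line marking equal values, and genes far from 0 on either axis named. EIF4E2 lies near the dashed line in both clones, while EEF1A2 lies far below it in clone 2.

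Other genes of translation, listed by role, were compared in the same way. Of 53 genes, 3 were higher and 4 lower than control in clone 1, and 7 were higher and 4 lower in clone 2, with medians of -0.03 and -0.00. Over all compared genes, 16.5% were higher and 13.9% lower in clone 1, and 21.9% higher and 18.7% lower in clone 2. The 9 genes of cap-binding proteins outside eIF4E and their partners had medians of -0.04 and -0.23, with 2 higher and 1 lower in clone 1, and 3 higher and 2 lower in clone 2. NCBP1, a subunit of the nuclear cap-binding complex, was at 96.9 normalized counts per kb in clone 1, 97.7 in clone 2 and 76.7 in control, log2 ratios of 0.34 and 0.35. Its partner NCBP2 was at 62.5, 76.1 and 53.5 per kb (0.22 and 0.51). GIGYF2 had the largest mean ratio of this role, as given above. The lower ones were GIGYF1 in clone 1 (-0.41 and -0.16), and ZNF598 (-0.29 and -0.40) and LSM14A (-0.04 and -0.36) in clone 2.

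Of 11 genes that signal to eIF4, 2 were lower in clone 1, and in clone 2 there were 1 higher and 1 lower, against the shares of all genes just given. PDCD4, an inhibitor of the eIF4A helicase on chromosome 10, was at 46.7 normalized counts per kb in clone 1, 68.8 in clone 2 and 45.6 in control (log2 ratios of 0.03 and 0.59). TSC2, which restrains mTOR, was at 18.8, 18.1 and 24.2 per kb (-0.36 and -0.42). The 5 genes of poly(A)-binding proteins and partners had medians of -0.15 and -0.05. PAIP2B, the lowest of them by level, was at 9.55, 9.83 and 6.84 per kb (0.47 and 0.51). PABPC4 was at 214, 227 and 279 per kb (-0.38 and -0.29), PAIP1 had ratios of -0.30 and -0.36, and PABPC1, the main cytoplasmic form, -0.15 and -0.05. Among genes of start-site choice and the eIF2 pathway, ABCF1, which associates with eIF2, was at 44.2, 43.97 and 52.8 per kb (-0.25 and -0.26). PPP1R15B, which directs dephosphorylation of eIF2, was higher in clone 2 (0.18 and 0.33). No termination and recycling, hypusination or diphthamide gene was off by 0.322 (log2) in either clone. In these roles HBS1L (0.22 and 0.09), DOHH (0.20 and 0.23) and DPH3 (0.05 and 0.31) had the largest mean ratios in size. TUFM, the mitochondrial elongation factor, was at 71.1, 96.2 and 75.1 per kb (-0.08 and 0.36). GFM2, which recycles mitochondrial ribosomes, had the largest mean ratio of the mitochondrial factors, 0.16 and 0.22.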

How the data were processed

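PRO-seq was carried out on 9 libraries, 3 per group. Per the design text, each used 1000000 cells with a spike-in of 40000 Drosophila cells and reads of 42 nt. The authors deposited a signal per gene and group: per the file header, the mean of normalized counts over replicates divided by gene length in kb, rounded to 0.01. Tools listed without role or order in the submitters' processing notes are DESeq2, featureCounts, Bowtie 1.2.2 and cutadapt 1.14; no source used here states the counted feature, the strand setting or how spike-in reads were used. The header has 6 names and rows 5 cells, so the symbol is taken to be the missing one. The depth of single libraries is unknown.

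The planned tests for values per library could not be run. Deposited values were multiplied by length in kb to give normalized counts, and log2 ratios were taken with a pseudocount of 1 where the mean over the groups reached 10 counts, the script having been tested on simulated data. Symbols, positions and exons come from GENCODE release 44 (GRCh38; 57754 of 58336 identifiers matched); the authors' length equals its merged exon length for 10 of the 69 genes and is within 5% of it for 50. Promoter windows come from RefSeq (GRCh38.p14). Named were all eIF4 genes, the extremes of each factor group by level and by mean ratio, genes off by 0.322 (log2) in both clones in 1 direction or 1.5-fold off in any comparison, and, of the other translation genes, those 1.5-fold off and the largest per role; further genes were chosen after their values were seen. The members, gene lists and folds were chosen with earlier results of these data known. Protein identity within families was planned and not run. Python 3.11.15, numpy 2.4.6, pandas 2.3.3 and matplotlib 3.10.9 were used.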

Additional observations from a re-analysis of the deposited data

How the results depend on the processing

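No paired analysis was possible because the table gives 1 mean per group, and replicates could not be left out for the same reason. The medians of the 60 factor genes and of the eIF4 genes moved by less than 0.1 on the log2 scale under every alternative run (median-of-ratios and quantile scaling, pseudocounts of 0.5 and 5, no filter, a floor of 50, values per kb, the neighbours' median subtracted and, added after the data were seen, leaving out genes that share at least 10% of their exon bases with another gene). Of 1137 values of single genes under these alternatives, 1093 moved by less than 0.1 and 43 by more, 36 of them with the neighbours' median subtracted. The total includes values that could not move. No filter (132 values), a floor of 50 (117) and leaving out overlapping genes (96) change only which genes are kept. With the neighbours' median subtracted, 95 values moved by less than 0.1. One value past 0.322 changed sign: EIF4EBP2 between the clones was -0.13 with the neighbours' median subtracted, against 0.43. The counts of genes past a fold are small and moved more. In clone 1 against control, 3 genes were lower by at least 0.322 (log2) as reported, 5 with quantile scaling, 5 with no filter and 0 with a floor of 50. The 1 gene higher became 3 with no filter and 0 without overlapping genes, which drops EIF4E2. With the neighbours' median subtracted, EIF4E2 was at 0.12 in clone 1, and EIF3L, at 0.39, was past 0.322 instead. At 1.5-fold, 2 were lower as reported, 1 with a pseudocount of 5, 1 per kb, 1 without overlapping genes, 4 with no filter and 0 with a floor of 50, and 0 were higher as reported and 1 with no filter. In clone 2 against control, 8 genes were higher by 0.322 as reported and 4 without overlapping genes, and 4 were lower as reported and 2 with a floor of 50, 2 with the neighbours' median subtracted and 2 without overlapping genes. After that subtraction EIF4E2 was at 0.12 in clone 2, while EIF1AD (0.51) and EEF2 (0.35) were newly past 0.322. At 1.5-fold, 2 were higher as reported, 1 with quantile scaling, 1 without overlapping genes and 0 with the neighbours' median subtracted, and 1 was lower as reported, 3 with no filter and 0 with a floor of 50. Between the clones, 7 were higher by 0.322 in clone 2 as reported, 4 with a floor of 50, 4 without overlapping genes and 3 with the neighbours' median subtracted, and 2 were lower as reported, 4 with no filter and 1 with a floor of 50. At 1.5-fold, 2 were higher as reported and 1 with a pseudocount of 5, a floor of 50, the neighbours' median subtracted or overlapping genes left out, and 1 was lower as reported, 2 with no filter and 0 with a floor of 50. A floor of 50 leaves 55 genes and removes EEF1A2, EIF5A2, EEF2KMT, EEF1AKMT4 and EIF4EBP3. The cause of the other shifts was not tested. With the tract allowed within 5 bases of the start, 36.4% of the 55 windows held one, against 22.1% of all.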

Other observations

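Factor genes outside the autosomes were near control as well. The X-linked EIF2S3, the third eIF2 subunit gene, was at 52.2 normalized counts per kb in clone 1, 58.8 in clone 2 and 58.6 in control, and EIF1AX at 49.0, 52.3 and 54.3. Of 138 autosomal pseudogenes with EIF or EEF symbols, 53 were listed at 0 in every group and 4 reached a mean of 10 counts. The highest was EEF1A1P3, with 32.1 normalized counts in clone 1, 28.9 in clone 2 and 34.0 in control. Reads of a gene and of its processed copies can be hard to tell apart, and 1 of 43 EEF1A1 pseudogenes reached that level. EEF1DP2, on chromosome 9, had 21.7, 14.6 and 22.8 normalized counts, EIF3KP1 had 15.8, 13.96 and 19.2, and EIF2AK1P1 had 15.1, 13.5 and 18.8.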
